A study of Homo sapiens with 16 samples.

Results

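ATF4, DDIT3, DDIT4, TRIB3, ATF5, CEBPG, SESN2, INHBE, STC2 and NUPR1 are regulators, feedback inhibitors and secreted products of the ATF4 arm of the integrated stress response, and they are 10 of the 19775 genes that the arrays measured with a probe set of a single gene symbol. They were chosen by their role in that response and by their azacitidine (AZA) minus vehicle differences on these same arrays, which earlier results had shown. Their levels and differences are therefore given as a description, without a test. Each gene was read from its brightest single-symbol probe set, and the other probe sets of a gene are given beside it.

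The RNA came from 4 long-established human lines of acute myeloid leukaemia and was read on 16 Affymetrix U133 Plus 2.0 arrays. AML-193 is of monocytic type, HL60 of promyelocytic type and KG1a of an immature type, and HNT-34 is the last of the lines. In each line 2 arrays came from cells given 0.5 µM AZA, a cytidine analogue that depletes DNA methyltransferases, daily over 3 days, followed by 4 drug-free days, and 2 came from cells given the solvent DMSO (vehicle). All groups grew in light-labelled SILAC medium, so the vehicle cells shared that medium with the AZA cells, and every group is a culture of a single line. Nothing in the labels tells whether both arrays of a group stand for separate cultures. The p-values below therefore cover only the spread among these 16 arrays, and that spread may be technical.

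When the translation factor eIF2 is phosphorylated by one of its kinases, general protein synthesis drops while the ATF4 protein is made more efficiently from its mRNA. ATF4 is a basic leucine zipper (bZIP) transcription factor that pairs with C/EBP proteins and switches on genes for amino acid uptake and synthesis, for charging tRNAs and for limiting stress. Transcript arrays read the ATF4 mRNA and the mRNAs of its targets, not eIF2 phosphorylation or ATF4 protein.

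Promoter stretches are shown because the members are known for their control through bZIP sites. RefSeq promoter windows of GRCh38.p14, from 250 bases before to 50 bases after each gene's start, were on hand for 8 of the 10 members (INHBE and NUPR1 were not analysed here) and for 39 other ATF4 targets. The core of the C/EBP-ATF response element, searched as TGATGNAA on both strands, was found in 1 of the 8 members, CEBPG, 42 bases before its start. It was in 15 of the 39 other targets (38.5%) and in 1217 of all 27305 genes with a window (4.46%). By window, 3.62% of all windows of that length held it. The stretches below run 5′ to 3′ along the gene's strand, with the element in capitals, in the member CEBPG and in the targets ASNS, CHAC1 and AARS1, which are described further on.
CEBPG, chr19:33374025-33374112, plus strand: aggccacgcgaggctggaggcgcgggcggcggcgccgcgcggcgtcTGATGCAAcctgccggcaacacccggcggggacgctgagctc
ASNS, chr7:97872423-97872522, minus strand: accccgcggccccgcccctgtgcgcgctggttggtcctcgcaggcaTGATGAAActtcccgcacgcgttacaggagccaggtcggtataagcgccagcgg
CHAC1, chr15:40953221-40953315, plus strand: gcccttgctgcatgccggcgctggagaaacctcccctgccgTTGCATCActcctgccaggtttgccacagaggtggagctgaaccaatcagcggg
AARS1, chr16:70289640-70289739, minus strand: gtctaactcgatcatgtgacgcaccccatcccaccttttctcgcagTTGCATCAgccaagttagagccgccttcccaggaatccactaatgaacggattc

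The AP-1 element TGACTCA, searched on both strands, was in 2 of the 8 members, DDIT3 and ATF5, and in 6.05% of all genes with a window (4.95% of windows). The core element above and the AP-1 element were thus in different members. The cyclic AMP response element TGACGTCA was in 0 of the 8 members and in 2.25% of genes (1.85% of windows). The AP-1 stretches of these members are shown with the element in capitals, 188 bases before the start in ATF5.
DDIT3, chr12:57520703-57520764, minus strand: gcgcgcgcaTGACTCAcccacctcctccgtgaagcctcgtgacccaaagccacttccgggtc
ATF5, chr19:49928672-49928770, plus strand: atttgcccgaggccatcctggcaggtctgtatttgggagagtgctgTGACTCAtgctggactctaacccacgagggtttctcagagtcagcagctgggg
A match is a run of letters and not a shown binding site. Sites outside these windows were not searched, so a missing match does not show that a gene lacks the element.

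ATF4 mRNA was lower after AZA in all 4 lines, and no AZA array reached a vehicle array of its line. Its log2 signal was 12.74 and 12.73 in AML-193 after AZA, against 14.03 and 14.01 with vehicle. In HNT-34 it was 13.48 and 13.42 after AZA, against 14.05 and 14.05 with vehicle. The AML-193 gap was the widest of the 4, at -1.28 ± 0.064 (AZA minus vehicle, log2, standard error of a fit over all 8 groups, n = 2 arrays a group), a vehicle signal 2.43-fold that after AZA. In KG1a the arrays read 13.25 and 13.32 after AZA, against 13.69 and 13.60 with vehicle, a difference of -0.36. In HL60 they read 13.78 and 13.75 after AZA, against 14.16 and 14.15 with vehicle, a difference of -0.39. HNT-34 lay between, at -0.60. With vehicle KG1a had the lowest ATF4 signal, and after AZA AML-193 did. In arrays of whole cultures a lower signal cannot tell fewer expressing cells from less RNA per cell.

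**Figure D1:**
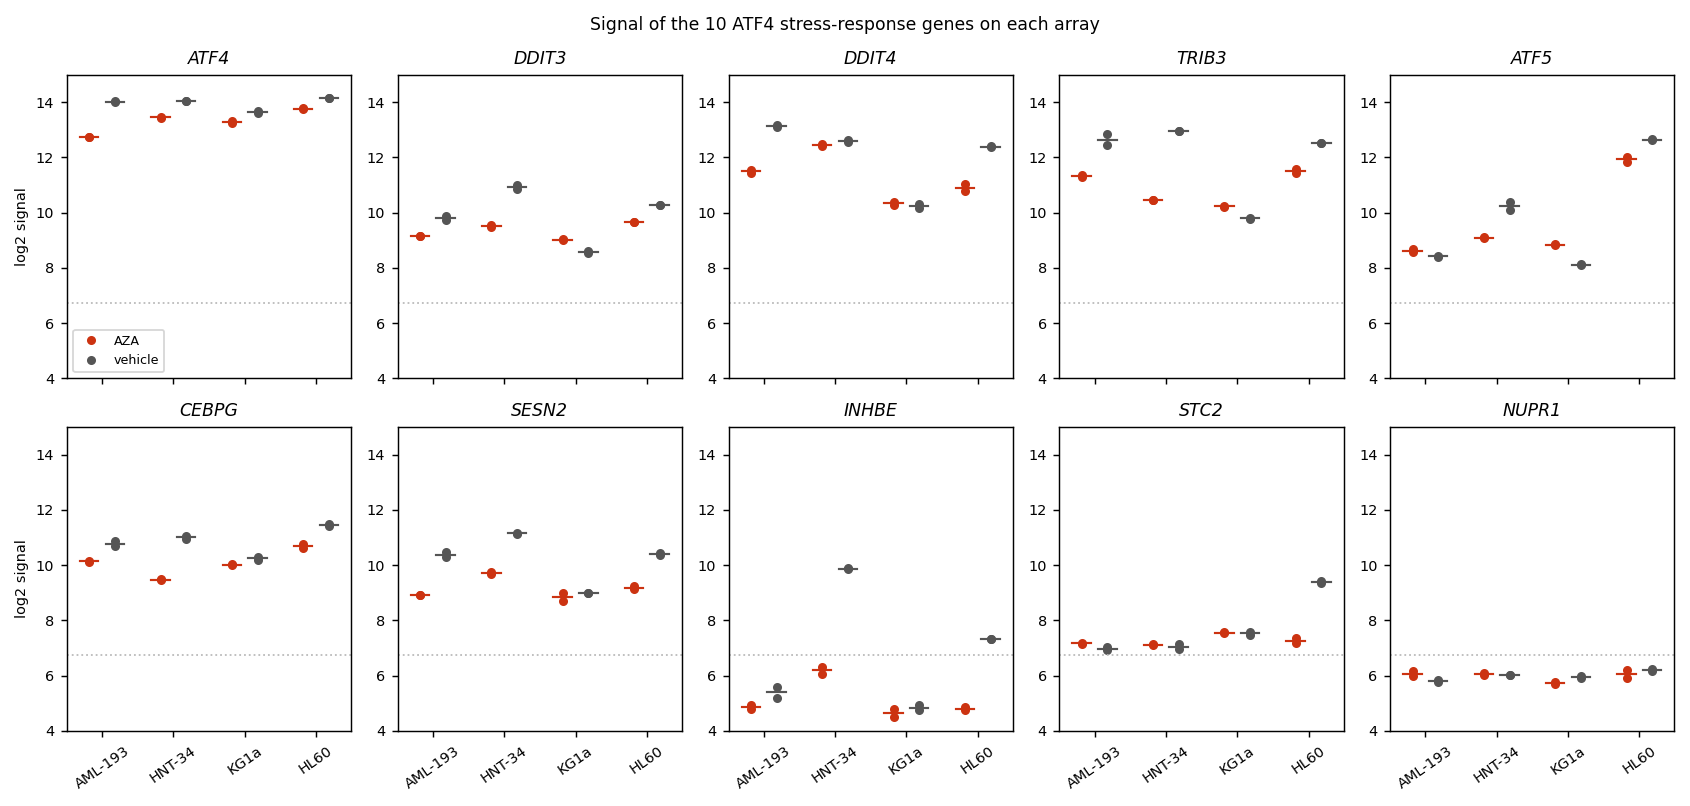
Log2 signal of the 10 genes on each of the 16 arrays, with AZA in red left of vehicle in grey for each line, a point per array and a bar at the mean of 2. The dotted line is the array median of 6.73. ATF4 lies below vehicle after AZA in every line, while NUPR1 stays under the dotted line throughout.

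DDIT3, ATF5 and CEBPG encode bZIP partners of the response. DDIT3 (CHOP) is a C/EBP-family factor tied to prolonged stress, ATF5 is a factor of mitochondrial and proteotoxic stress, and CEBPG pairs with ATF4 on amino acid genes. DDIT3 and ATF5 were lower after AZA in HNT-34 and HL60 and higher in KG1a, and CEBPG was lower in every line.

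DDIT3 signal in HNT-34 was 9.48 and 9.55 after AZA, against 10.85 and 10.98 with vehicle (-1.41 ± 0.073). In KG1a it was 9.04 and 9.00 after AZA, against 8.55 and 8.61 with vehicle (0.44 ± 0.073). Neither pair of groups overlapped, and the directions were opposite. AML-193 arrays read 9.15 and 9.15 after AZA, against 9.89 and 9.74 with vehicle (-0.66). HL60 arrays read 9.67 and 9.67 after AZA, against 10.27 and 10.28 with vehicle (-0.60). DDIT3 had its lowest vehicle level in KG1a, and KG1a was lowest after AZA as well, even though its own level was higher than with vehicle.

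ATF5 was by far brightest in HL60, where it read 12.03 and 11.84 after AZA, against 12.66 and 12.62 with vehicle (-0.70 ± 0.092). In HNT-34 it read 9.07 and 9.12 after AZA, against 10.10 and 10.37 with vehicle (-1.14). Both lines were lower after AZA without overlap. In KG1a it read 8.86 and 8.82 after AZA, against 8.09 and 8.13 with vehicle (0.73). In AML-193 the AZA arrays, 8.69 and 8.57, also lay above the vehicle arrays, 8.43 and 8.41 (0.21). The second brightest ATF5 probe set gave the same 4 directions, at 0.15 in AML-193, -1.07 in HNT-34, 0.57 in KG1a and -0.93 in HL60. Its dimmest, near the array median, ranged from -0.08 in HNT-34 to 0.06 in KG1a.

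CEBPG read 9.48 and 9.46 in HNT-34 after AZA, against 10.96 and 11.05 with vehicle (-1.54 ± 0.078), the largest of its 4 differences. HL60 read 10.62 and 10.77 after AZA, against 11.48 and 11.43 with vehicle (-0.76). AML-193 read 10.13 and 10.15 after AZA, against 10.71 and 10.86 with vehicle (-0.64). In these lines the groups stood well apart. KG1a read 9.99 and 10.05 after AZA, against 10.30 and 10.20 with vehicle, a narrow gap of -0.22. Its second probe set was lower in all 4 lines too, by -1.05 in HNT-34 and -0.13 in KG1a. CEBPG lies next to CEBPA, the myeloid C/EBP factor, in the RefSeq gene order.

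TRIB3, DDIT4, SESN2 and NUPR1 restrain or modulate the response. TRIB3 is a pseudokinase that binds ATF4 and DDIT3 and limits their activity. DDIT4 (REDD1) and SESN2 (sestrin 2, a leucine sensor) hold down the growth kinase complex mTORC1. NUPR1 is a small stress-induced chromatin protein.

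TRIB3 in HNT-34 read 10.45 and 10.45 after AZA, against 12.97 and 12.95 with vehicle (-2.51 ± 0.10). In HL60 it read 11.57 and 11.44 after AZA, against 12.52 and 12.51 with vehicle (-1.01). In AML-193 it read 11.36 and 11.30 after AZA, against 12.84 and 12.44 with vehicle (-1.31). KG1a again went the other way, with 10.23 and 10.22 after AZA, against 9.80 and 9.79 with vehicle (0.43). AML-193 and HL60 vehicle arrays overlapped, so their order is not set. A dimmer TRIB3 probe set shared the direction in HNT-34 (-2.45), KG1a (0.23) and HL60 (-2.58) but not in AML-193, where it gave 0.47. The AML-193 direction of TRIB3 thus rests on the probe set.

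SESN2 was lower after AZA in 3 lines by like amounts. It read 8.90 and 8.92 in AML-193 after AZA, against 10.28 and 10.47 with vehicle (-1.47 ± 0.094). HNT-34 read 9.67 and 9.76 after AZA, against 11.14 and 11.17 with vehicle (-1.44). HL60 read 9.24 and 9.14 after AZA, against 10.38 and 10.43 with vehicle (-1.22). KG1a had almost no gap, with 8.72 and 9.00 after AZA and 9.01 and 9.01 with vehicle (-0.15). Vehicle KG1a already lay near the level that AML-193 had after AZA, and the AZA arrays of those lines overlapped. The second SESN2 probe set gave -2.25 in AML-193, -1.60 in HNT-34, -0.26 in KG1a and -0.92 in HL60.

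DDIT4 separated the lines in another way, with wide gaps in AML-193 and HL60 only. AML-193 read 11.55 and 11.43 after AZA, against 13.17 and 13.12 with vehicle (-1.65 ± 0.092). HL60 read 11.03 and 10.77 after AZA, against 12.38 and 12.40 with vehicle (-1.48). The HNT-34 arrays lay close together, at 12.48 and 12.41 after AZA and 12.62 and 12.55 with vehicle (-0.14). In KG1a, 10.40 and 10.27 after AZA overlapped with 10.17 and 10.32 with vehicle (0.09). HNT-34, with the widest CEBPG and DDIT3 gaps, thus had a DDIT4 difference near that of KG1a.

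NUPR1 was below the array median on all 16 arrays, between 5.69 and 6.24, and was not tested. Its differences were 0.26 in AML-193, 0.03 in HNT-34, -0.21 in KG1a and -0.13 in HL60, each ± 0.096. The arrays overlapped in HNT-34 and HL60. The files hold no detection calls, so these values do not show whether NUPR1 was expressed.

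INHBE and STC2 are secreted. INHBE is the inhibin beta E subunit, a liver-rich member of the TGF-beta family, and STC2 is stanniocalcin 2, a glycoprotein hormone. INHBE reached the array median only with vehicle, in HNT-34 and HL60, and STC2 had its highest signal in vehicle HL60.

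INHBE in HNT-34 read 6.31 and 6.07 after AZA, against 9.85 and 9.89 with vehicle. That difference of -3.67 ± 0.13 was the widest among the members, with the vehicle signal 12.8-fold that after AZA. HL60 read 4.86 and 4.77 after AZA, against 7.32 and 7.33 with vehicle (-2.51, a 5.71-fold vehicle signal). After AZA both lines were below the array median, where RMA signals can understate a difference. AML-193 read 4.78 and 4.93 after AZA, against 5.60 and 5.20 with vehicle (-0.55), and KG1a overlapped, with 4.50 and 4.78 after AZA and 4.93 and 4.75 with vehicle. INHBE reached the array median on only 4 arrays, the vehicle arrays of HNT-34 and HL60, and passed the filter on low signal through them.

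STC2 read 7.19 and 7.35 in HL60 after AZA, against 9.34 and 9.42 with vehicle (-2.11 ± 0.082, a 4.31-fold vehicle signal). The other probe set of STC2 gave -2.78 there. In the other lines STC2 stayed between 6.92 and 7.59. The differences there were 0.20 in AML-193, where the groups did not overlap, and 0.07 in HNT-34 and 0.02 in KG1a, where they did. With the other probe set the differences were 0.004, 0.11 and 0.05 in the same order of lines. STC2 thus differed by over 1 log2 unit in HL60 alone, while INHBE did so in HNT-34 and HL60.

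**Figure D2:**
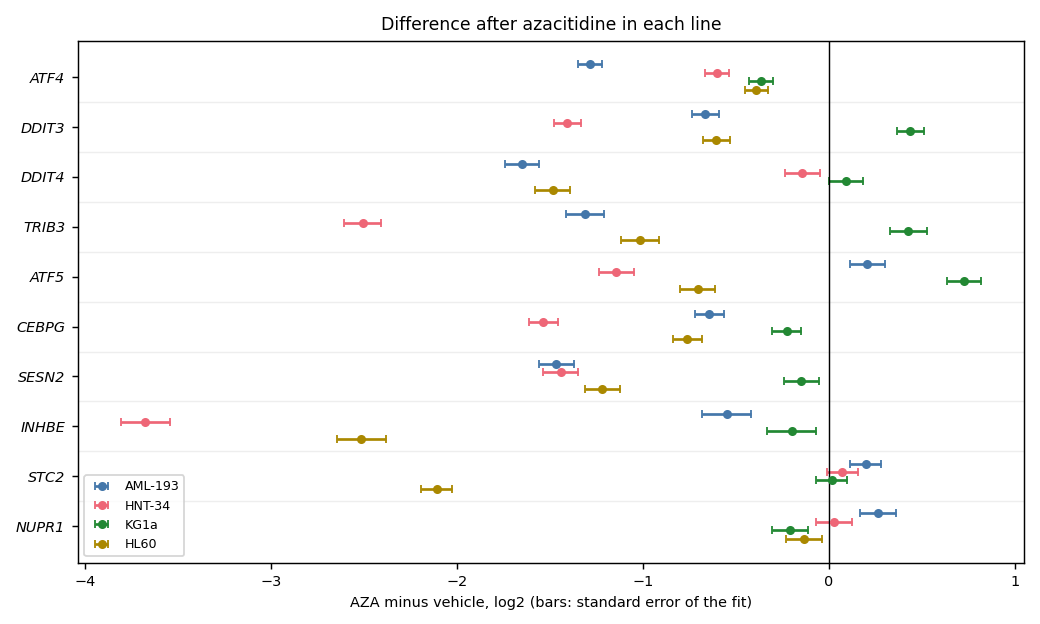
AZA minus vehicle on the log2 scale for each member and line, as points with the standard error of the fit over 16 arrays. Points left of 0 are lower after AZA. HL60 points of the 9 tested members all lie left of 0, KG1a points stay between -0.36 and 0.73, and INHBE in HNT-34 is farthest left at -3.67.

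Among the 9 members that passed the filter on low signal, both AZA arrays lay below both vehicle arrays for 7 in AML-193, 8 in HNT-34, 3 in KG1a and 9 in HL60. Of the 14038 tested genes, 33.4%, 33.3%, 23.5% and 28.3% did so in the same order of lines. Both AZA arrays lay above both vehicle arrays for 2 members in AML-193 (ATF5 and STC2), 0 in HNT-34, 3 in KG1a (DDIT3, TRIB3 and ATF5) and 0 in HL60, and for 35.9%, 35.2%, 28.8% and 41.2% of tested genes. Since the members were picked with these differences known, nothing is read from their counts. In AML-193 the INHBE difference was -0.35 without vehicle array 1.

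RNA quality moved with treatment in AML-193 and HL60. The 3′ minus 5′ log2 signal of ACTB and GAPDH, which grows as RNA breaks down, was 0.198 ± 0.0433 after AZA and 1.27 ± 0.463 with vehicle in AML-193 (SD, n = 2). In HL60 it was 0.722 ± 0.163 after AZA and 0.0443 ± 0.0116 with vehicle. HNT-34 and KG1a groups lay between -0.102 and 0.0587. This value of each array was added to the fit, with a slope set by how arrays within each group differ. The widest gap within a group was between the 2 AML-193 vehicle arrays, at 0.94 and 1.59. The slope therefore leans mostly on that pair, and the adjusted values are uncertain. With the value added, the HL60 members stayed lower throughout, INHBE at -2.91 and TRIB3 at -1.38. In AML-193 ATF4 stayed at -1.21, DDIT4 at -1.52 and SESN2 at -1.66, while TRIB3 shrank to -0.74 and DDIT3 to -0.45. INHBE came to 0.08 there, above 0.

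**Figure D3:**
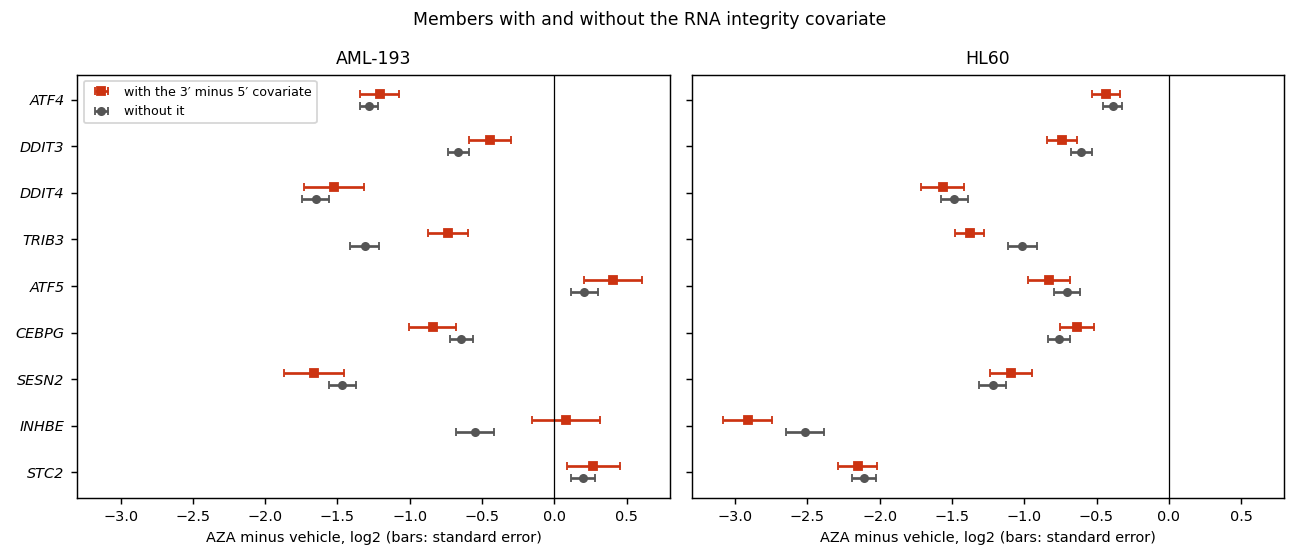
AZA minus vehicle (log2, bars for the standard error) of the 9 tested members in AML-193 and HL60, with the 3′ minus 5′ covariate as red squares and without it as grey circles. ATF4, DDIT4 and SESN2 in AML-193 hold their place, while INHBE moves to 0.08.

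The genes below are not members and were tested, and rose or fell is written for those called at an adjusted p of 0.05. Of all tested genes, 20.3% were called lower and 20.7% higher in AML-193, 14.8% lower and 15.4% higher in HNT-34, 3.37% lower and 6.56% higher in KG1a, and 16% lower and 25.2% higher in HL60.

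Transcripts upstream of ATF4 were mixed. Of 19 tested genes for eIF2 kinases, eIF2, eIF2B and their regulators, 3 fell and 3 rose in AML-193, 6 fell and 3 rose in HNT-34, 1 fell and 4 rose in KG1a, and 8 fell and 6 rose in HL60. The medians lay between -0.07 and 0.01 in log2. With the covariate 1 fell and 0 rose in AML-193, and 3 fell and 4 rose in HL60. EIF2AK4 (GCN2), the kinase for uncharged tRNA, fell in HNT-34 by 0.68 (limma, adjusted p = 0.00013) and did not pass in the other lines. EIF2AK3 (PERK), the endoplasmic reticulum kinase, rose in HL60 by 0.50 (limma, adjusted p = 0.00015), and EIF2AK1 (HRI), the haem-regulated kinase, rose there by 0.55 (limma, adjusted p = 6.3e-05). EIF2AK2 (PKR), the kinase for double-stranded RNA, gave -0.20 in AML-193, -0.30 in HNT-34, 0.01 in KG1a and -0.14 in HL60. The HNT-34 call of EIF2AK2 was lost without vehicle array 2 or AZA array 1 of that line (values from -0.35 to -0.24 over all arrays left out in turn). PPP1R15A (GADD34), which guides the phosphatase that reverses eIF2 phosphorylation, gave 0.16, 0.30, 0.39 and -0.07 in the same order of lines. Its HNT-34 call was lost without vehicle array 1 or either AZA array of HNT-34 (0.27 to 0.33), and its KG1a call without the same arrays of KG1a (0.36 to 0.42). These genes say nothing of the phosphorylation of eIF2 itself.

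Most other known targets of ATF4 fell after AZA in AML-193, HNT-34 and HL60, and 15 of them fell in KG1a. Of 51 listed genes, 46 were tested. In AML-193 32 fell and 8 rose, with a median of -0.60. In HNT-34 33 fell and 4 rose, with a median of -0.88. In KG1a the 15 that fell stood beside 4 that rose, with a median of -0.15. In HL60 34 fell and 4 rose, with a median of -0.55. The medians over all tested genes were 0.02, 0.01, 0.02 and 0.05 in the same order of lines. The list was written with earlier results of these data known, so it is not independent evidence of its direction. By a moderated F-test the size of the difference varied between lines for 45 of the 46, where 57.1% of all tested genes did so. The exception was ADM2 (limma, adjusted p = 0.403). The number was 39 with the 3′ minus 5′ covariate and 41 with the mean of probe sets.

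With the 3′ minus 5′ covariate 20 of these targets fell and 2 rose in AML-193, and 24 fell and 3 rose in HL60. In KG1a the number that fell ranged from 10 to 19 when any 1 of the 16 arrays was left out.

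Targets called lower in each of the 4 lines numbered 12 of 46, against 0.321% of all tested genes. Leaving out 1 array moved that number between 8 and 16, with the lowest reached without KG1a AZA array 1 or KG1a vehicle array 1. ASNS, CBS, CHAC1, EIF4EBP1, PCK2, SLC7A11 and WARS1, 7 genes in all, were called lower in every line in each leave-one-out fit and with the covariate.

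Genes of amino acid supply mostly fell outside KG1a. Of 18 tested, 14 fell and 3 rose in AML-193, 14 fell and 0 rose in HNT-34, 8 fell and 1 rose in KG1a, and 15 fell and 0 rose in HL60. With the covariate 9 fell and 0 rose in AML-193, and 10 fell in HL60. SLC7A11, the cystine carrier, averaged 7.95 after AZA and 11.11 with vehicle in HNT-34 (-3.17 ± 0.096, limma, adjusted p = 8.4e-11), and fell by 1.63 in AML-193, 0.70 in KG1a and 1.61 in HL60. ASNS, asparagine synthetase, averaged 8.49 after AZA and 11.08 with vehicle in AML-193 (-2.59 ± 0.095, limma, adjusted p = 1.3e-09), and fell by 2.09 in HNT-34, 0.52 in KG1a and 1.29 in HL60. The mean of its probe sets was smaller, at -1.38 in AML-193 and -1.12 in HNT-34.

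Others of these genes differed in size or direction between lines. CTH, which makes cysteine, averaged 7.50 after AZA and 10.54 with vehicle in AML-193 (-3.04 ± 0.090, limma, adjusted p = 2.4e-10) and gave 0.15 in HNT-34 and 0.26 in KG1a. In HL60 it gave -0.30, a call lost without vehicle array 2 (-0.27) or AZA array 1 (-0.22) of HL60. PSAT1, an enzyme of serine synthesis, averaged 9.48 after AZA and 13.10 with vehicle in HL60 (-3.61 ± 0.18, limma, adjusted p = 1.6e-08) and fell by 1.07 in KG1a; the mean of its probe sets was -2.33 in HL60. In AML-193 PSAT1 was called higher, at 0.74, and not without AZA array 2 of that line (0.64) or with the covariate (0.23). PHGDH, the first enzyme of serine synthesis, gave -2.66 in HNT-34, -0.87 in KG1a and -1.30 in HL60, all past the test. In AML-193 PHGDH was called higher, at 0.38, and not without AML-193 vehicle array 1 (0.24), without AML-193 AZA array 2 (0.14) or with the covariate (-0.06). CBS, the first enzyme of transsulfuration, fell in all 4 lines, with differences of -1.83 in AML-193, -1.48 in HNT-34, -0.84 in KG1a and -1.91 in HL60; the mean of its probe sets was -0.53 in KG1a.

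Aminoacyl-tRNA synthetases fell or did not pass the test. Of 12 tested genes, which include the tRNA exporter XPOT, 11 fell in AML-193, 12 in HNT-34, 5 in KG1a and 10 in HL60, and 0 rose in any line. With the covariate 7 fell in AML-193 and 9 in HL60. WARS1, for tryptophan, averaged 11.51 after AZA and 13.87 with vehicle in HNT-34 (-2.36 ± 0.074, limma, adjusted p = 1.2e-10), and fell by 1.14 in AML-193, 0.61 in KG1a and 0.87 in HL60. AARS1, for alanine, whose promoter stretch is shown above, fell by 1.33 in AML-193, 1.34 in HNT-34 and 0.88 in HL60. In KG1a AARS1 gave -0.23, a call lost in 12 of the 16 leave-one-out fits (-0.28 to -0.18).

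Targets of stress signalling and secretion were mixed. Of 16 tested, 7 fell and 5 rose in AML-193, 7 fell and 4 rose in HNT-34, 2 fell and 3 rose in KG1a, and 9 fell and 4 rose in HL60. With the covariate 4 fell and 2 rose in AML-193, and 5 fell and 3 rose in HL60. CHAC1, which degrades glutathione, averaged 8.04 after AZA and 10.94 with vehicle in HNT-34 (-2.91 ± 0.11, limma, adjusted p = 5.1e-10), and fell by 1.68 in AML-193, 0.87 in KG1a and 2.04 in HL60. ATF3, a bZIP factor induced by stress, fell in AML-193 (-0.79), HNT-34 (-1.72) and HL60 (-1.65) and gave -0.14 in KG1a; the mean of its probe sets was -0.86 in HNT-34 and -0.89 in HL60. VEGFA, the vascular growth factor, fell by 1.04 in AML-193, 1.64 in HNT-34 and 1.26 in HL60, gave 0.16 in KG1a, and lost its AML-193 call with the covariate, at -0.56. The mean of its probe sets was -0.60 in AML-193 and -1.02 in HNT-34. TNFRSF10B (DR5), a death receptor that DDIT3 can induce, rose by 1.50 in AML-193 and 0.95 in HL60 and fell by 0.75 in HNT-34. The mean of its probe sets was 0.79, 0.04 and -0.46 in these lines, and the HL60 call was lost with it. GDF15, a secreted stress hormone, rose by 1.24 in AML-193, or 0.48 with the mean of its probe sets. Its AML-193 call was lost with the covariate (0.98). Both AML-193 means of GDF15, 6.63 after AZA and 5.40 with vehicle, lay below the array median of 6.73. In HNT-34 GDF15 gave 0.46, a call lost without vehicle array 2 (0.39) or AZA array 2 (0.42) of that line.

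**Figure D4:**
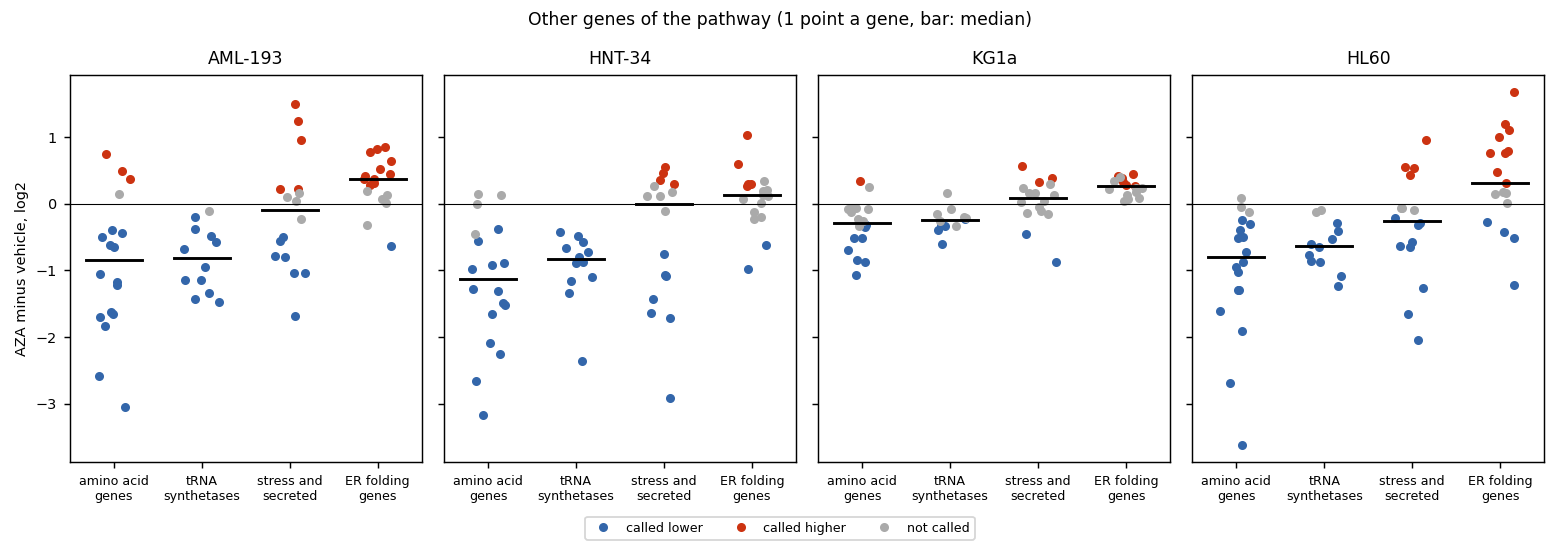
AZA minus vehicle (log2) of the tested genes of 3 groups of ATF4 targets and of the endoplasmic reticulum folding list, 1 point a gene, by line. Blue points were called lower, red higher and grey neither, and black bars are medians. Amino acid genes (median -0.85 in AML-193, -1.13 in HNT-34, -0.29 in KG1a, -0.80 in HL60) and tRNA synthetases lie mostly below 0, and the folding genes mostly above.

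Genes of endoplasmic reticulum folding, driven by ATF6 and XBP1 in the parallel arms of the unfolded protein response, did not share that direction. Of 17 tested, 1 fell and 11 rose in AML-193, 2 fell and 5 rose in HNT-34, 0 fell and 7 rose in KG1a, and 4 fell and 9 rose in HL60. CRELD2, a secreted folding factor, averaged 12.05 after AZA and 10.38 with vehicle in HL60 (1.67 ± 0.093, limma, adjusted p = 4e-08) and rose by 1.03 in HNT-34. The chaperones CALR and MANF rose in HL60 by 1.19 and 1.10. HERPUD1, a degradation factor that both ATF6 and ATF4 can induce, fell instead, by 0.64 in AML-193, 0.98 in HNT-34 and 0.52 in HL60. Its AML-193 call was lost with the covariate (-0.41). With the mean of its probe sets it fell by 0.61 in HNT-34. Of the same list, EDEM1 fell by 1.22 in HL60 and rose by 0.86 in AML-193, where its call was lost with the covariate (0.34). SEL1L gave -0.62 in HNT-34, -0.28 in HL60 and 0.28 in KG1a. Its mean of probe sets was -0.48 in HNT-34. With the covariate only 1 of the 17 was called higher in AML-193.

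Lists of neighbouring pathways held genes of both directions in every line. Of 13 tested HIF targets, 3 fell and 4 rose in AML-193, 2 fell and 5 rose in HNT-34, 3 fell and 1 rose in KG1a, and 3 fell and 2 rose in HL60. Of 15 p53 targets, 3 fell and 7 rose, 1 fell and 6 rose, 2 fell and 1 rose, and 2 fell and 3 rose in the same order of lines, and CDKN1A, the cell cycle inhibitor p21, rose by 1.17, 1.08 and 0.89 in the first 3. Of 20 mTORC1 subunits and regulators, the complex that DDIT4 and SESN2 restrain, 4 fell and 6 rose, 5 fell and 6 rose, 1 fell and 1 rose, and 4 fell and 5 rose. With the covariate the AML-193 counts were 0 lower and 0 higher for HIF targets, 1 and 1 for p53 targets, with CDKN1A at 1.37 no longer called, and 1 and 0 for the mTORC1 genes. In HL60 they were 1 and 1, 1 and 1, and 1 and 2.

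Of 36 other bZIP factors, 9 fell and 14 rose in AML-193, 10 fell and 9 rose in HNT-34, 2 fell and 5 rose in KG1a, and 12 fell and 9 rose in HL60. With the covariate 2 fell and 5 rose in AML-193, and 7 fell and 6 rose in HL60. CREB5, a factor related to ATF2, rose in all 4 lines, by 1.59, 1.85, 2.93 and 1.97 in the order AML-193, HNT-34, KG1a, HL60. The mean of its probe sets was lower, at 0.76, 0.84 and 1.40 in the first 3. BATF3, an AP-1 partner, fell in AML-193 (-0.60), HNT-34 (-1.74) and HL60 (-1.09), and lost its AML-193 call with the covariate (-0.46). CEBPD, an inflammatory C/EBP factor, rose in AML-193 by 2.70, or 1.38 with the mean of its probe sets.

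Paralogues of the members outside the bZIP family were mixed. Of 8 tested, 2 fell and 3 rose in AML-193, 0 fell and 5 rose in HNT-34, 2 fell and 1 rose in KG1a, and 1 fell and 4 rose in HL60. With the covariate 0 fell and 2 rose in AML-193, and 1 fell and 1 rose in HL60. In HNT-34, where TRIB3 was lower by -2.51, TRIB2 averaged 11.34 after AZA and 9.05 with vehicle (2.29 ± 0.11, limma, adjusted p = 7.7e-09) and TRIB1 rose by 1.15. TRIB1 and TRIB2 rose in AML-193 too, by 1.56 and 1.47, or 0.87 and 1.10 with the mean of probe sets. TRIB2 rose in HL60 by 0.62, or 0.20 with that mean. In KG1a, where TRIB3 was higher, TRIB1 gave -0.67, or -0.34 with the mean of its probe sets. INHBA, the inhibin beta A subunit of activin A, averaged 9.52 after AZA and 6.0 with vehicle in HNT-34 (3.52 ± 0.16, limma, adjusted p = 3.2e-09), the line in which INHBE was lower by -3.67. In HL60 INHBA gave -0.43, the same direction as INHBE there, or -0.90 with the covariate; that call was lost without either AZA array of AML-193, HNT-34 or HL60 or without HL60 vehicle array 2, at values from -0.46 to -0.28. INHBC, which lies next to INHBE in the RefSeq gene order, gave 0.01 in HNT-34. In AML-193 it gave -0.45, the direction of INHBE there, a call lost without vehicle array 1 (-0.30) or AZA array 1 (-0.40). That call was also lost with the covariate (-0.09) and with the mean of its probe sets (-0.11). In HL60 INHBC was called higher, at 0.43, opposite to INHBE there (-2.51), a call lost without HL60 AZA array 2 (0.39). SESN3 rose in HNT-34 by 0.68, KG1a by 1.31 and HL60 by 1.16, or by 0.38 in KG1a and 0.39 in HL60 with the mean of its probe sets. The differences between a member and its paralogue were not tested.

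**Figure D5:**
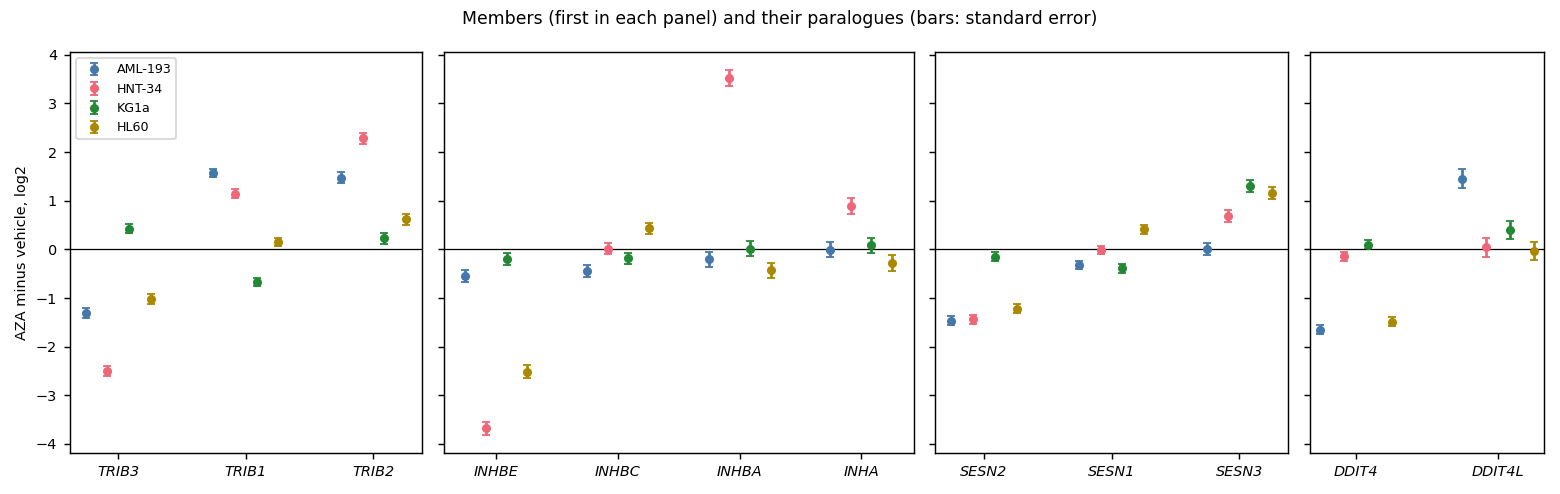
AZA minus vehicle (log2, bars for the standard error) of TRIB3, INHBE, SESN2 and DDIT4, first in each panel, and of their paralogues, coloured by line. In HNT-34 TRIB3 lies at -2.51 and TRIB2 at 2.29, and INHBE lies at -3.67 and INHBA at 3.52.

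Genes whose pattern was most like that of a member were ranked by Pearson's r over the 16 arrays, after the mean of each line's 4 arrays was subtracted. The arrays share lines and treatments, so r is a description with no p. ATF4 was closest to SHMT2 (0.991), the mitochondrial serine enzyme, CARS1 (0.980) and PDK1 (0.978). DDIT3 was closest to SOCS2 (0.977), SLC39A14 (0.964) and SLC43A1 (0.962), and TRIB3 to SLC43A1 (0.982), HERPUD1 (0.981) and SOCS2 (0.979). CEBPG was closest to SLC7A11 (0.992), LONP1 (0.984) and PSIP1 (0.981), and SESN2 to AARS1 (0.989), GRPEL2 (0.985) and RNF41 (0.983).

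DDIT4 was closest to FGFR1OP2 (0.938), LDHB (0.936) and NFATC1 (0.936), and ATF5 to SEL1L (0.978), MCMBP (0.930) and JAG1 (0.912). A high r does not mean a difference of like size. LDHB gave -0.12 in AML-193 and -0.13 in HL60, where DDIT4 gave -1.65 and -1.48. INHBE was closest to SUPT3H (0.978), BATF3 (0.976) and LONP1 (0.971), and STC2 to TGM5 (0.974), DCTN2 (0.973) and CFAP68 (0.971). Among the members themselves DDIT3 and TRIB3 were most alike (0.989), followed by CEBPG and INHBE (0.950). ATF4 was near SESN2 (0.898) and far from ATF5 (0.181) and STC2 (0.157).

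The cultures carried blood cell transcripts. PTPRC, SPI1, CORO1A, LCP1 and CD34 reached the array median in all 8 groups, MPO in 6 and CD14 in 3. Of 12 measured markers listed for other cell types, of which myeloid cells can also carry PECAM1, EPCAM, KRT19, CDH1, COL1A2, COL3A1 and MS4A1 were below the array median in every group, KRT8, COL1A1, PECAM1 and CD3E were above it in all 8, and VWF and CD3D in 4. Of 7 blood cell markers, 5 rose and 0 fell in AML-193, 3 fell and 0 rose in HNT-34, 1 fell and 0 rose in KG1a, and 3 fell and 3 rose in HL60. MPO and CD14, markers of granulocytic and monocytic cells, rose in AML-193 by 3.11 and 1.65, and CD14 rose in HL60 by 1.62. With the covariate 1 of the 7 was called higher in AML-193, where CD14 was no longer called (1.61), and 2 in HL60. In KG1a CD3D, a T cell gene, rose by 2.13. Smaller CD3D differences were called higher in AML-193 (0.23), HNT-34 (0.33) and HL60 (0.31). With the covariate CD3D was no longer called in AML-193 (0.42) or HL60 (0.19). The part of these shifts in the members' differences was not tested.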

How the data were processed

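The authors deposited a table of signals on the log2 scale, as its values from 3.26 to 15.3 show. Per the submitters' processing notes, affy and RMA were used; versions, log base and order of steps are not given in the sources used here. All arrays share their quantiles within 0.00404, and the values were used as deposited. There are no detection calls, differences of dim genes may be understated, and 2 arrays a group limit the precision. Of 54675 probe sets, 62 were controls, 41097 had 1 gene symbol, 1801 several and 11777 none; 41043 matched the GRCh38.p14 gene table, which changed 0 symbols. The brightest single-symbol probe set stood for each of 19775 genes, and the 14038 genes at or above the median of 2 or more of the 16 arrays were tested.

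One limma model (3.58.1, R 4.3.3) held 1 mean for each of the 8 groups (8 residual and 4.80 prior degrees of freedom), with empirical Bayes moderation and Benjamini-Hochberg adjustment at 0.05. The fit was tested on simulated data. The members and all lists were chosen with earlier results of these data known. Named genes are the 10 members, up to 4 called genes of a list per line with the largest difference, the 3 closest genes of each member, the eIF2 kinases, PPP1R15A and the markers; ADM2 and genes of a short count were named after their values were seen. Alternatives were renewed quantile normalization, no filter, the mean of probe sets, each line alone, another probe set, the 3′ minus 5′ covariate and leaving out each array. CD33 was not analysed here.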

Additional observations from a re-analysis of the deposited data

Results flagged for a closer look

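For 5 members every AZA array lay on one side of vehicle in one line and on the opposite side in another. The difference between the lines was not tested for any of them. DDIT3 differed by 1.85 log2 units between KG1a (0.44) and HNT-34 (-1.41). TRIB3 differed by 2.93 between KG1a (0.43) and HNT-34 (-2.51), and ATF5 by 1.87 between KG1a (0.73) and HNT-34 (-1.14). STC2 differed by 2.31 between AML-193 (0.20) and HL60 (-2.11), and the AML-193 side of it was small and near the array median. With the other STC2 probe set the AML-193 difference was 0.004. NUPR1 differed by 0.47 between AML-193 (0.26) and KG1a (-0.21), below the array median on every array.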

How the results depend on the processing

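Differences of the 9 tested members kept their sign when any 1 of the 16 arrays was left out, except STC2 in HNT-34 and KG1a. The STC2 groups overlap in those lines. Fitting each line alone or without the filter cannot change a difference of group means, so the same signs there show nothing. Renewed quantile normalization kept all signs, but the arrays already shared their quantiles within 0.00404, so little could change. In AML-193 signs also turned for TRIB3 with its dimmer probe set (0.47) and for INHBE with the 3′ minus 5′ covariate (0.0813). The sign of ATF5 turned in AML-193, KG1a and HL60 with dim probe sets (-0.0364, -0.0470 and 0.0268). The cause was not tested. Genes called of all tested were 5751, 4245, 1394 and 5794 in AML-193, HNT-34, KG1a and HL60. With the covariate they were 373 in AML-193 and 2152 in HL60, and 844 in KG1a when each line was fitted alone. With 1 array left out they ranged from 4030 to 6100, 2892 to 4562, 688 to 1610 and 4298 to 6042; KG1a gave 698 and 688 without its AZA array 1 or 2 and 878 without its vehicle array 1. Other targets called lower numbered 20 in AML-193 with the covariate, and with 1 array left out 30 to 33, 31 to 34, 10 to 19 and 30 to 34. Those differing between lines numbered 43 to 45 with 1 array left out, 39 with the covariate and 41 with the mean of probe sets. Of 170 calls of named genes, 40 were lost in at least 1 leave-one-out fit, 40 with the covariate, and 68 under at least 1 alternative of any kind. No paired analysis was possible because the labels number no replicates across groups.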
